A study of Mus musculus with 6 samples.

Results

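The platelet-derived growth factor (PDGF) family was followed through the non-neuronal nuclei of the neonatal mouse brain. Its 6 genes were taken by symbol from the 32285 genes of the count matrices, namely the 4 ligands Pdgfa, Pdgfb, Pdgfc and Pdgfd and the 2 receptors Pdgfra and Pdgfrb. Neonatal C57BL/6 S-56 mice had received 5 µl of lysophosphatidic acid (LPA), a bioactive lipid of blood, or of the vehicle, 0.01% bovine serum albumin, into a cerebral ventricle at postnatal day 7, and brains were taken at postnatal day 15. There were 3 libraries of each group, and every animal of either group had the injection. No transgene or deletion was part of the design, and the labels give no sex. Nuclei came from whole brains without olfactory bulbs and cerebellum and were sorted as NeuN negative, NeuN being a protein of neuronal nuclei, so the vascular, meningeal and glial sources of PDGF were enriched.

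PDGFs are dimeric ligands that act through a pair of receptor tyrosine kinases. PDGF-A and PDGF-C act mainly through the receptor encoded by Pdgfra and PDGF-D mainly through that encoded by Pdgfrb, while PDGF-B binds both. In the brain, PDGF-B from endothelial cells recruits pericytes, the mural cells of capillaries, which carry Pdgfrb, and PDGF-A drives the division of oligodendrocyte precursors, which carry Pdgfra. PDGF-C and PDGF-D are secreted as latent forms that proteases have to cut.

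In the GENCODE M21 annotation of GRCm38, the build that the submitters' processing notes call mm10, Pdgfra lies on chromosome 5 (75152292 to 75198215, plus strand) with the related receptor gene Kit 377 kb away. Pdgfrb lies on chromosome 18 (61045150 to 61085061, plus strand) with another relative, Csf1r, 15.5 kb away. Among the ligands, Pdgfa lies on chromosome 5 (138976014 to 138997370, minus strand), Pdgfb on chromosome 15 (79995874 to 80014977, minus strand), Pdgfc on chromosome 3 (81036416 to 81214040, plus strand) and Pdgfd on chromosome 9 (6168584 to 6378850, plus strand). Pdgfc and Pdgfd are long genes of 178 kb and 210 kb, of which exons fill 2.87% and 1.5%. UMIs, the molecule counts of the 10x assay, were counted over introns as well, and 5 of the members overlap another counted gene on the opposite strand. The paper reports default counting parameters apart from a pre-mRNA reference, but the sources used here do not state how the counting used strand. Whether Pdgfc shared reads with the antisense gene Gm16000 (3774 UMIs against 19155 of Pdgfc), or Pdgfb with Gm41361 (2861 against 3352), was not tested. Pdgfb and Gm41361 had 889 and 20 UMIs in endothelial cells, and 807 and 2119 in neurons.

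After filtering, 57443 nuclei were left, between 7579 and 11745 per library, with a median of 3732 to 4578 UMIs. Of these, 48502 fell into 15 populations named from marker genes. The members, the markers and the genes of the pathway lists were kept out of the clustering. Most markers of the larger populations that carry the family were found where the names put them. All 14 endothelial markers and all 18 meningeal markers were highest in their own population, as were 11 of 13 markers of oligodendrocyte precursors and 8 of 12 markers of pericytes. Of 8 markers shared by committed precursors and newly formed oligodendrocytes, 5 were highest in the former and 3 in the latter. Cycling precursors, named from the 13 precursor markers, were highest for 0 of them. Despite the sort, 14503 nuclei carried neuronal markers. Before filtering, 235 cell barcodes occurred in all 6 libraries. Barcodes found in at least 5 libraries held a median of 741 to 804 UMIs, with 6.31% to 6.77% of them mitochondrial, and the filters left 2 to 5 of these barcodes per library. From Xist and genes of the Y chromosome, 1 of the LPA libraries and 2 of the vehicle libraries were male.

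Levels were compared between populations for each gene on its own, as CPM, the count of a gene scaled to 1e+06 UMIs, of the UMIs summed per library and population. Values are means ± SD over 6 libraries, LPA and vehicle together. A two-sided exact paired permutation test over 6 libraries cannot give less than p = 0.03125, and after adjustment over 84 pairs of neighbours no pair went below an adjusted p of 0.125. An order is therefore described by the number of libraries that showed it.

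Pdgfra, the receptor of oligodendrocyte precursors, was highest in these cells, at 1053 ± 68.4 CPM, with 968 CPM in the lowest library and 1157 CPM in the highest. Cycling precursors followed at 797 ± 30.6 CPM and meningeal cells at 246 ± 14.4 CPM. In choroid plexus epithelium, which secretes cerebrospinal fluid, it was at 114 ± 27.5 CPM. Each of these steps down was seen in all 6 libraries. Further along the lineage the level was 35.2 ± 12.8 CPM in committed precursors, 11.8 ± 8.02 CPM in newly formed oligodendrocytes and 6.86 ± 2.53 CPM in myelinating oligodendrocytes. Committed precursors did not differ from macrophages, next in the order, beyond the spread of the libraries. In vascular smooth muscle cells no UMI of Pdgfra was found in 116 nuclei, which allows a share of up to 2.59% of nuclei with a UMI. At least 1 UMI of Pdgfra was present in 90.6% of oligodendrocyte precursors (95% Wilson interval 89.5% to 91.6%, median depth 3136 UMIs). In microglia, which should lack the gene, it was present in 3.88% (3.10% to 4.84%, median depth 1766 UMIs). Intervals of this kind cover counting error only.

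Pdgfrb, the receptor of mural cells, was highest in pericytes at 1740 ± 113 CPM. Vascular smooth muscle cells followed at 1237 ± 230 CPM, although with only 116 nuclei in 6 libraries. Meningeal cells had 155 ± 16.1 CPM, astrocytes 92.7 ± 5.88 CPM and endothelial cells 31.5 ± 11.3 CPM. The first 4 populations kept this order in all 6 libraries, while endothelial cells, macrophages and choroid plexus epithelium did not differ beyond their spread. A UMI was present in 95.4% of pericytes (94.0% to 96.5%, median depth 2137 UMIs) against 1.78% of microglia (1.28% to 2.48%). Among astrocytes the level depended on the cluster. Those led by Grin2c and Slc1a2 had 110 to 127 TMM-scaled CPM, that is CPM with library totals corrected by edgeR's TMM factors, and those led by Slc6a11 and Agt had 39.5 to 61.0, with no overlap.

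**Figure D1:**
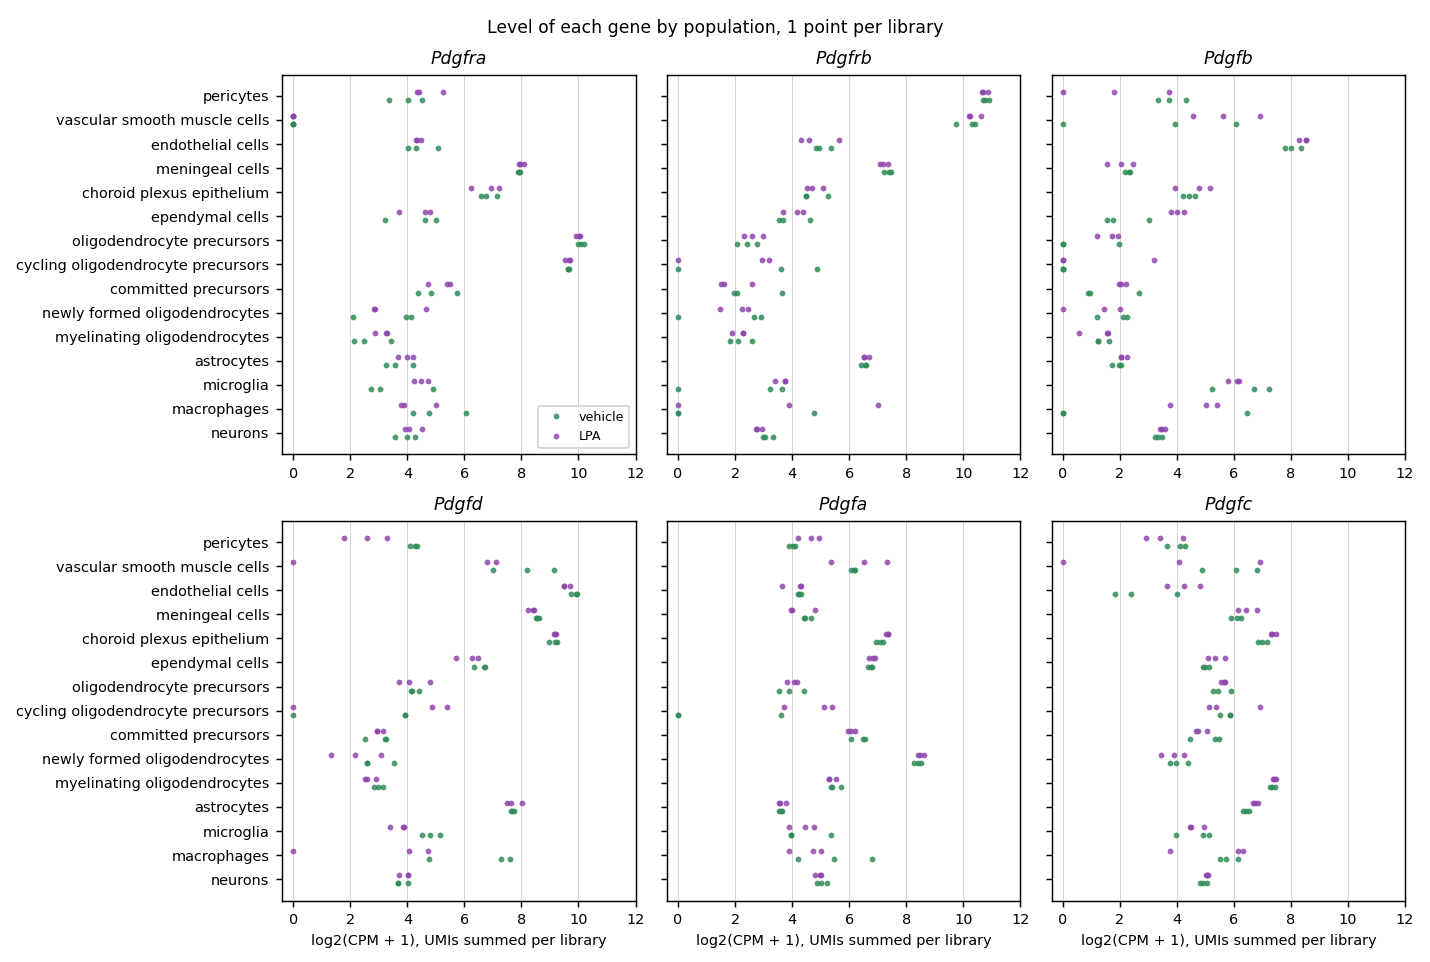
Level of each PDGF gene across the 15 named populations; the horizontal axis is log2(CPM + 1) of UMIs summed per library, and each point is 1 library, coloured by group. Pdgfra peaked in oligodendrocyte precursors (1053 CPM), Pdgfrb in pericytes (1740 CPM), Pdgfb and Pdgfd in endothelial cells, Pdgfa in newly formed oligodendrocytes and Pdgfc in myelinating oligodendrocytes.

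Both receptors were examined nucleus by nucleus in meningeal cells, oligodendrocyte precursors and pericytes. Of 4033 meningeal nuclei, 38.5% held a UMI of Pdgfra, 31.8% of Pdgfrb and 15.4% of both. The split among meningeal cells followed Slc47a1, an organic cation exporter that marks some arachnoid cells. In the 2774 nuclei of clusters without Slc47a1 the shares were 51.0%, 41.6% and 21.7%, the last close to the 21.2% that the first 2 shares give if the receptors are found independently. In oligodendrocyte precursors the shares were 90.6% for Pdgfra and 1.60% for Pdgfrb, and in pericytes 4.43% and 95.4%, so the second receptor was close to the 3.88% and 1.78% of microglia.

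The ligands had other sources. Pdgfa, the mitogen of oligodendrocyte precursors, was highest in newly formed oligodendrocytes at 349 ± 28.9 CPM, then in choroid plexus epithelium at 147 ± 17.1 CPM and in ependymal cells, the ciliated lining of the ventricles, at 109 ± 6.78 CPM. The first 2 steps held in 6 of 6 libraries. Vascular smooth muscle cells came next at 83.4 ± 40.1 CPM, from few nuclei. Pdgfa then was at 74.1 ± 12.9 CPM in committed precursors, 42.3 ± 5.07 CPM in myelinating oligodendrocytes and 15.1 ± 3.31 CPM in oligodendrocyte precursors, the cells with the most Pdgfra. Myelinating oligodendrocytes were not uniform. The cluster led by Casr and Cemip2 had 92.4 to 132 TMM-scaled CPM of Pdgfa in the 6 libraries and the cluster led by Opalin and Ctps had 4.21 to 7.58. The remaining cluster, led by 4930420G21Rik and Prr5l, had 16.5 to 24.6.

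Pdgfc, the other ligand that acts mainly on the Pdgfra receptor, ran the opposite way in this lineage. It was at 14.8 ± 3.60 CPM in newly formed and at 167 ± 8.67 CPM in myelinating oligodendrocytes, its highest level. Within the latter, the cluster led by Opalin and Ctps had 220 to 254 TMM-scaled CPM, above the 127 to 169 of the cluster led by Casr and Cemip2. Choroid plexus epithelium had 145 ± 23.6 CPM, lower than myelinating oligodendrocytes in 5 of 6 libraries. Astrocytes had 95.9 ± 13.5 CPM and meningeal cells 78.0 ± 18.4 CPM.

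Pdgfb, the ligand that recruits pericytes, was highest in endothelial cells at 307 ± 57.7 CPM, between 222 and 366 CPM. Microglia had 80.4 ± 39.8 CPM, lower in all 6 libraries, and were uneven, with 36.6 CPM in the lowest and 148 CPM in the highest library. Next came vascular smooth muscle cells with 45.3 ± 44.0 CPM from few nuclei. Macrophages had 28.8 ± 33.3 CPM and choroid plexus epithelium 22.8 ± 7.15 CPM. Pericytes had 9.14 ± 6.97 CPM and no other named population was above 10 CPM. A UMI was present in 46.9% of endothelial nuclei (43.9% to 49.8%) against 0.830% of myelinating oligodendrocytes (0.645% to 1.07%), although the latter had the deeper nuclei, with a median of 5330 against 2437 UMIs.

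Pdgfd, the ligand of the Pdgfrb receptor, had the widest spread among vascular and barrier cells. Endothelial cells had 847 ± 114 CPM, choroid plexus epithelium 568 ± 35.9 CPM, meningeal cells 351 ± 32.4 CPM and astrocytes 207 ± 25.9 CPM, and this order held in 6 of 6 libraries. Pericytes, with the most Pdgfrb, had 11.5 ± 7.10 CPM of Pdgfd. Among astrocytes, those led by Gfap and Myoc had 372 to 523 TMM-scaled CPM, those led by Slc6a11 and Agt 215 to 365 and those led by Grin2c and Slc1a2 88.1 to 115.

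Within the vascular nuclei the members differed between clusters. Pooled over libraries, Pdgfb was at 704 CPM in the endothelial cluster led by Adgrl4 and Fam129a, which also had Cd93, Prnd and Apln among its leading genes. It was at 272 CPM in the largest endothelial cluster, led by Flt1, and at 138 CPM in a cluster led by Bmx and Eln, known from arteries. Pdgfd had the reverse order in these clusters, with 660, 934 and 1165 CPM. The remaining endothelial cluster, led by Gm5127 and Il1r1, had 145 CPM of Pdgfb and 615 CPM of Pdgfd and stood outside this order. In meningeal cells, Pdgfra was at 685 CPM in the cluster led by Enpp1 and Lama1, 529 CPM in that led by Aox3 and Col4a6, 257 CPM in that led by Gm30613 and Dcdc2a and 152 CPM in that led by Ptgds. It was between 33.7 and 49.2 CPM in the 3 clusters with Slc47a1. Pdgfrb followed the same order in these meningeal clusters, at 346, 248, 199 and 175 CPM and between 20.0 and 42.1 CPM. Pdgfc ran the other way, with 76.9 to 385 CPM in the clusters with Slc47a1, most in that led by Gm6260 and Cdh1, and 11.1 to 35.3 CPM in the others. Pdgfd had its meningeal maximum, 607 CPM, in the cluster led by Gm30613 and Dcdc2a.

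**Figure D2:**
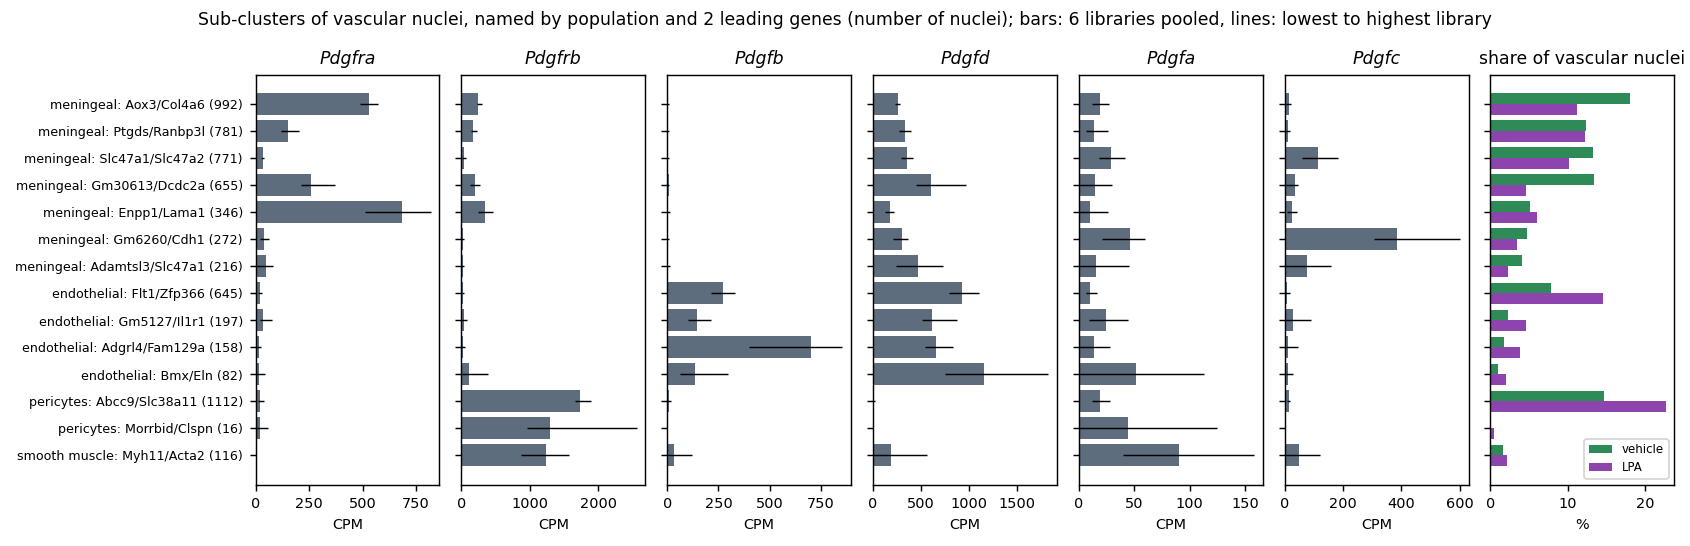
Pooled CPM of each PDGF gene in the named clusters of vascular and meningeal nuclei (bars, linear axis from 0; thin lines run from the lowest to the highest library), with the share of vascular nuclei in each cluster after LPA and vehicle at the right. Pdgfb stood at 704 CPM in the endothelial cluster led by Adgrl4 and Fam129a, and Pdgfra at 685 CPM in the meningeal cluster led by Enpp1 and Lama1.

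The 3 genes whose mean log2(CPM + 1) over the 15 populations followed each member most closely, of 15142 genes, are given as a description, with Pearson's r across populations that share libraries. For Pdgfrb these were Atp13a5, a transporter of brain pericytes (r = 0.98), Sh3d21 (0.96) and Notch3, the mural Notch receptor (0.96). Atp13a5 and Notch3 stood on the pericyte marker list. For Pdgfra they were Megf11 (0.89), also a marker of precursors used here, Zfp961 (0.88) and Smoc1 (0.88). For Pdgfb they were Tpra1 (0.89), Fau (0.89) and F11r (0.88), for Pdgfa Gm28875 (0.80), Tbc1d32 (0.79) and Syne3 (0.78). The closest genes to Pdgfd, Ddi1 (0.93), and to Pdgfc, Gm16000 (0.88), are the genes that overlap them on the other strand, followed by Smad6 (0.92) and Lama5 (0.91), and by Gpt (0.76) and Clmn (0.75).

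LPA was compared with vehicle within each population by edgeR's quasi-likelihood test on the summed UMIs of the 6 libraries. A gene was called at a Benjamini-Hochberg adjusted p under 0.05, over all genes tested in that population, if its log2 fold change also reached 0.25. Values below are TMM-scaled CPM in replicates 1, 2 and 3, and log2 differences are LPA minus vehicle ± SE. In the 14 populations with enough nuclei in every library, 56 pairs of a member and a population had enough counts for the test and 28 did not. Of the 56 pairs 1 was called, Pdgfc in astrocytes, while between 0% and 8.82% of all genes tested were called in these populations. All LPA libraries lay above all vehicle libraries in 5 of the 56 pairs and below them in 4. How many of all genes did so was not counted, so a lack of overlap alone was not read as a difference.

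In pericytes, Pdgfrb was at 1872, 1639 and 1633 CPM in the LPA libraries and at 1880, 1722 and 1694 CPM in the vehicle libraries. The groups overlapped. The log2 difference was -0.05 ± 0.09 with a 95% interval of -0.23 to 0.14 (edgeR adjusted p = 0.96), and it was the only member with enough UMIs for the test. No member was called among pericytes, where 0.226% of all genes tested were.

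In endothelial cells, Pdgfb was at 364, 310 and 363 CPM after LPA and at 323, 223 and 258 CPM after vehicle. Only vehicle replicate 1 reached into the range of the LPA libraries. The log2 difference was 0.36 ± 0.14 (interval 0.08 to 0.65, edgeR adjusted p = 0.52) and was not called. Pdgfd was at 842, 722 and 704 CPM after LPA and at 862, 958 and 996 CPM after vehicle, so all LPA libraries lay below all vehicle libraries. Its log2 difference was -0.31 ± 0.12 (interval -0.55 to -0.07, edgeR adjusted p = 0.51) and was not called either. In endothelial cells 0.103% of genes were called. The share of endothelial nuclei with a UMI of Pdgfb was 53.7% ± 3.5 after LPA and 40.6% ± 7.54 after vehicle (SD, n = 3 each), but endothelial nuclei were also deeper after LPA, with library medians of 2553 to 2904 UMIs against 2024 to 2528. Thinned to 1000 UMIs per nucleus, which left out 7 LPA and 8 vehicle nuclei, the shares were 26.6% ± 2.11 and 23.3% ± 1.86 (two-sided exact permutation p = 0.2, where 0.1 is the least that 3 against 3 libraries can give).

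In oligodendrocyte precursors, Pdgfra was at 980.5, 1027 and 1085 CPM after LPA and at 1140, 987 and 1098 CPM after vehicle. The values were intermixed, with a log2 difference of -0.06 ± 0.07 (interval -0.20 to 0.08, edgeR adjusted p = 0.89). In cycling precursors it was -0.01 ± 0.16 (interval -0.33 to 0.31). No member was called in either, where 0.177% and 0% of all genes were. The share of precursors with a UMI of Pdgfra at 1000 UMIs was 61.2% ± 1.51 and 61.1% ± 2.47. Pdgfa in newly formed oligodendrocytes, where its level was highest, differed by 0.10 ± 0.11 on the log2 scale (interval -0.12 to 0.32). Pdgfc in myelinating oligodendrocytes differed by 0.10 ± 0.07 (interval -0.04 to 0.24). Neither was called, against 0.138% and 0.467% of genes in these populations. In the myelinating cluster led by Casr and Cemip2, Pdgfa was at 94.8, 92.4 and 115 CPM after LPA and at 131, 120 and 132 CPM after vehicle. All LPA libraries were lower, but the log2 difference of -0.34 ± 0.10 was not called (edgeR adjusted p = 0.43, with 0.0496% of genes called). In the cluster led by 4930420G21Rik and Prr5l no member was called either, against 0.87% of genes.

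In astrocytes, Pdgfc was at 107, 99.1 and 116 CPM after LPA and at 78.0, 84.2 and 90.9 CPM after vehicle. All LPA libraries were above all vehicle libraries, and Pdgfc rose by 0.34 ± 0.08 (edgeR adjusted p = 0.011, n = 3 each). It was 1 of 6 members tested in a population where 8.09% of all genes tested were called. Without LPA replicate 3 the call was lost (0.29, adjusted p = 0.062). In the cluster led by Gfap and Myoc, genes of reactive and superficial astrocytes, Pdgfc was at 150, 145 and 142 CPM against 86.9, 74.3 and 119 CPM and rose by 0.66 ± 0.15 (edgeR adjusted p = 0.0061, with 9.43% of genes called). This call was lost without vehicle replicate 2 (0.48, adjusted p = 0.11). In the cluster led by Grin2c and Slc1a2 the log2 difference was 0.23 ± 0.10 (adjusted p = 0.25, with 2.56% of genes called), and in the cluster led by Slc6a11 and Agt it was 0.19 ± 0.13 (adjusted p = 0.68, with 0.389% of genes called). The log2 differences of the Gfap and Grin2c clusters were 0.43 ± 0.17 apart, which was not called (edgeR adjusted p = 0.18, with 4.52% of genes called). Nuclei of the Gfap cluster were deeper after LPA, with library medians of 3041 to 3270 UMIs against 1812 to 2246, and the part of this depth in the difference was not tested. The mix of astrocytes also differed, with 424, 513 and 420 nuclei in the Gfap cluster after LPA and 127, 245 and 215 after vehicle. Pdgfd, which is highest in that cluster, had a log2 difference of 0.06 in all astrocytes but of -0.23, -0.12 and -0.25 in the clusters led by Gfap, Grin2c and Slc6a11, none of them called.

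In meningeal cells no member was called, against 1.14% of all genes. Pdgfra was at 276, 239 and 246 CPM after LPA and at 232, 248 and 238 CPM after vehicle, a log2 difference of 0.08 ± 0.09 (interval -0.10 to 0.25). Pdgfrb differed by -0.14 ± 0.10 (interval -0.35 to 0.07). Both receptors thus overlapped between the groups. Pdgfd was at 346, 298 and 337 CPM after LPA and at 383, 365 and 378 CPM after vehicle, with a log2 difference of -0.20 ± 0.08 (edgeR adjusted p = 0.37). The LPA libraries were all lower. The meningeal cluster with the most Pdgfd, led by Gm30613 and Dcdc2a, held 17, 48 and 38 nuclei after LPA and 167, 182 and 203 nuclei after vehicle. With the clusters weighted alike in every library, the log2 difference in Pdgfd was -0.02 (two-sided exact permutation p = 0.8), against -0.21 as measured.

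Pdgfc differed between the meningeal clusters. In those with Slc47a1 it was at 232, 180 and 258 CPM after LPA and at 141, 154 and 134 CPM after vehicle, and rose by 0.62 ± 0.14 (edgeR adjusted p = 0.033, with 0.718% of genes called). Pdgfc also differed among the single clusters with Slc47a1, as given above, and the part of their mix in this rise was not tested. In those without Slc47a1 it was at 5.99, 6.75 and 16.3 CPM after LPA and at 27.1, 24.7 and 22.6 CPM after vehicle, and was called lower by -1.40 ± 0.32 (edgeR adjusted p = 0.025, with 1.27% of genes called). These second values come from 22 and 130 UMIs in all and are no higher than Pdgfc in microglia (25.01 ± 7.28 CPM). A UMI was found in 2.98% ± 1.62 and 5.17% ± 0.574 of these nuclei, against 3.93% of microglia, so they were not read as expression. The first call was lost without LPA replicates 1 and 3 and without each of the vehicle replicates (edgeR adjusted p between 0.059 and 0.24). The second was lost without LPA replicates 1 and 2 and without vehicle replicate 1 (adjusted p = 0.11, 0.24 and 0.058). The log2 differences of the 2 kinds of cluster were 2.00 ± 0.32 apart (edgeR adjusted p = 0.00022, with 0.472% of genes called). As most of this comes from the clusters without Slc47a1, where Pdgfc passed the low-count filter through the vehicle libraries, and as the pair was added after the levels had been seen, no difference in response was read from it. Thinned to 1000 UMIs, 15.3% ± 1.90 of the nuclei with Slc47a1 held a UMI of Pdgfc after LPA and 9.83% ± 1.73 after vehicle (two-sided exact permutation p = 0.1, the least that this design can give).

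Among the cells that line the ventricles, Pdgfb in ependymal cells had 20, 14 and 15 UMIs after LPA and 6, 1 and 1 after vehicle. The log2 difference of 1.75 ± 0.49 was not called (edgeR adjusted p = 0.051, with 3.77% of genes called). It was between 1.46 and 2.75 with 1 library left out, the highest without vehicle replicate 1. Pdgfb passed the low-count filter here through the LPA libraries, so no difference was read from it. The antisense gene Gm41361 had 61 UMIs in ependymal cells against 57 of Pdgfb, and shared reads were not tested. In choroid plexus epithelium, where 0.0398% of genes were called, Pdgfc was at 178, 155 and 164 CPM after LPA and at 113, 124 and 140 CPM after vehicle, with a log2 difference of 0.39 ± 0.13 (adjusted p = 0.62). Pdgfa differed by 0.29 ± 0.12 there (adjusted p = 0.78). In both cases the LPA libraries were all above the vehicle libraries and no call was made. In microglia Pdgfb was at 71.8, 67.7 and 55.1 CPM after LPA and at 148, 104 and 36.2 CPM after vehicle, the last from 5 UMIs. The log2 difference of -0.64 ± 0.25 was not called (edgeR adjusted p = 0.11, with 8.82% of genes called). Without vehicle replicate 3 it was called (-0.85, edgeR adjusted p = 0.012). Pdgfd in microglia had a log2 difference of -1.17 ± 0.42 (edgeR adjusted p = 0.075) and was not called. It had 33 UMIs after LPA and 22 after vehicle. Among neurons and committed precursors no member was called either, against 0.0944% and 0.429% of genes, and in macrophages (0% of genes called) no member had enough UMIs for the test.

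**Figure D3:**
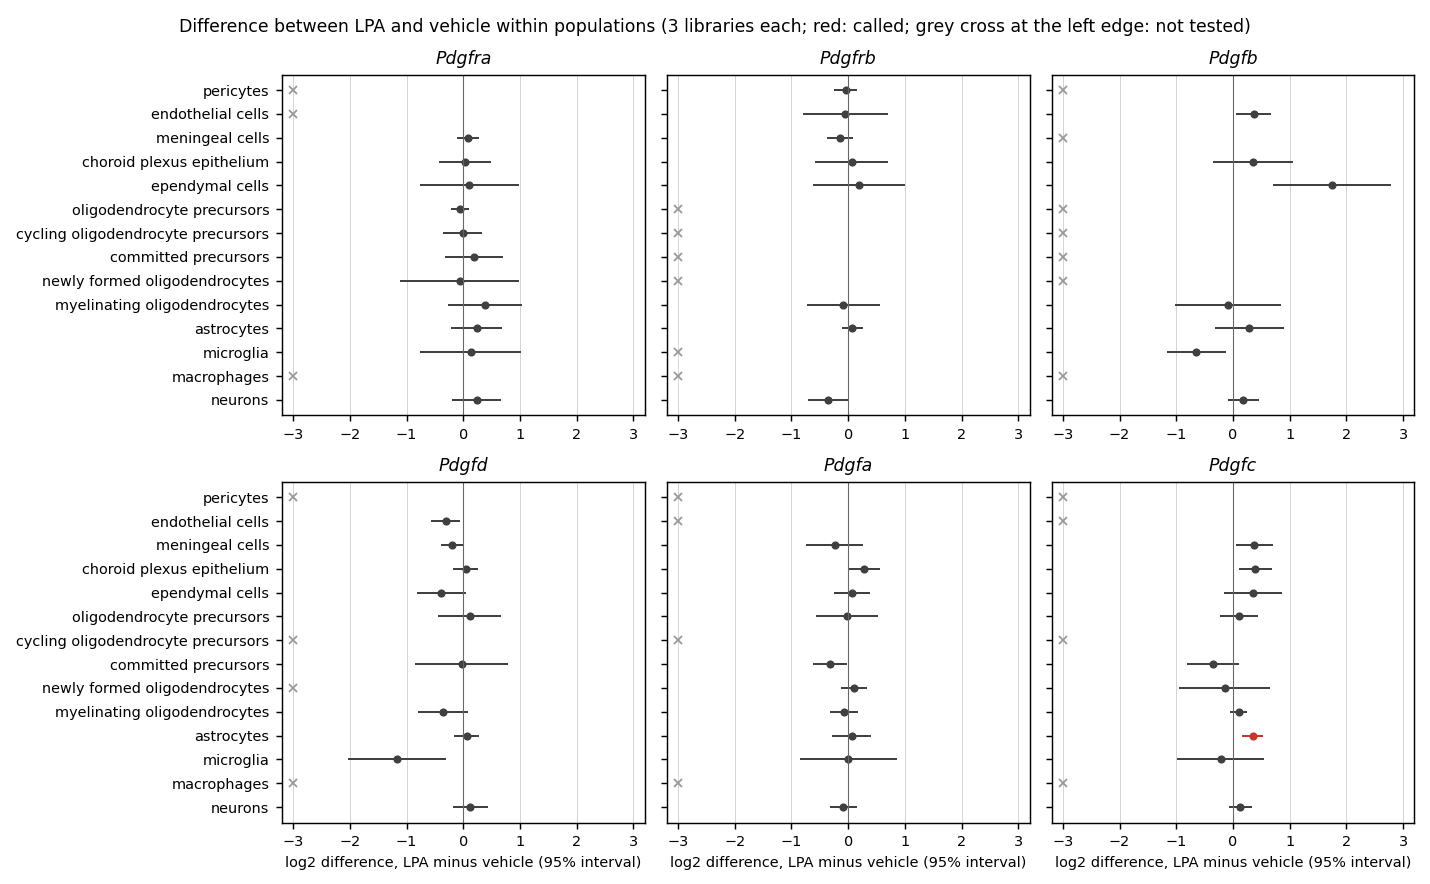
Log2 difference, LPA minus vehicle, of each PDGF gene in each population, with its 95% interval from the edgeR fit; the red point passed the call rule and a grey cross at the left edge marks a pair that was not tested. Pdgfc in astrocytes (0.34) was the pair that passed among the named populations.

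When the vascular nuclei (pericytes, smooth muscle, endothelial and meningeal cells) were summed as 1 class, 3 of the 6 members were called, in a comparison that called 8.79% of all genes tested. Pdgfb was at 92.3, 71.5 and 95.4 CPM after LPA and at 52.2, 25.4 and 35.5 CPM after vehicle and rose by 1.23 ± 0.19 (edgeR adjusted p = 0.00044). Pdgfrb was at 498, 397 and 430 CPM against 327, 337 and 339 CPM and rose by 0.40 ± 0.09 (edgeR adjusted p = 0.0058). Pdgfra was at 156, 153 and 138 CPM against 176, 198 and 183 CPM, and fell by 0.32 on the log2 scale (SE 0.08, edgeR adjusted p = 0.019). For each of the 3 genes the groups did not overlap, a trait that was not counted over all genes. The call of Pdgfra was lost without LPA replicate 3, without vehicle replicate 2 and without vehicle replicate 3 (adjusted p = 0.11, 0.11 and 0.063).

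The mix of the vascular nuclei differed between the groups as well. Meningeal cells made up 49.4% ± 3.4 of them after LPA and 70.7% ± 1.62 after vehicle, pericytes 23.5% ± 2.69 and 14.7% ± 0.955, and endothelial cells 25.03% ± 0.602 and 13.1% ± 2.31 (SD, n = 3 each). In each case the groups were apart (two-sided exact permutation p = 0.1, the least possible). With the 4 populations weighted alike in every library, the log2 difference was 0.33 for Pdgfb (exact permutation p = 0.2), -0.06 for Pdgfrb (p = 0.5) and 0.08 for Pdgfra (p = 0.3). Pdgfd, not called as measured, was at 371, 325 and 346 CPM after LPA and at 416, 410 and 422 CPM after vehicle at the fixed mix, a log2 difference of -0.26 with all LPA libraries lower (exact permutation p = 0.1). The mix of clusters inside each population was left free here. In meningeal cells the difference in Pdgfd was smaller with their clusters weighted alike. Pdgfc differed by 0.37 (exact permutation p = 0.2) and Pdgfa by -0.07 (exact permutation p = 0.8). Fewer nuclei of a population in the sort and fewer cells of it in the brain cannot be told apart here.

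**Figure D4:**
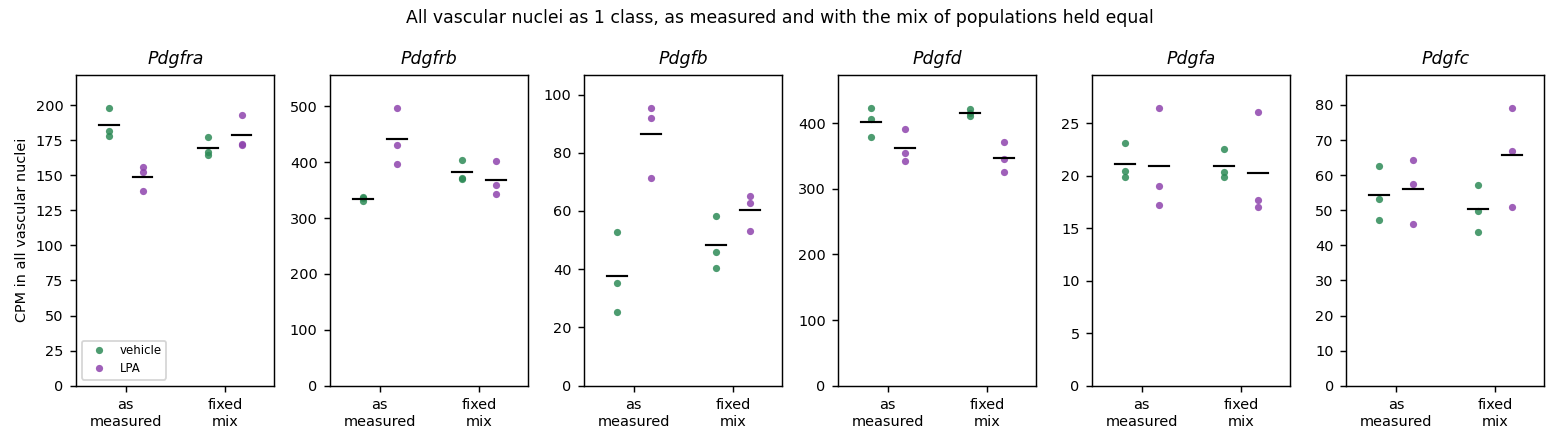
CPM of each PDGF gene in all vascular nuclei, as measured and with the 4 vascular populations weighted alike in every library; each point is 1 library and the bars are means of 3. For Pdgfb the means were 86.3 CPM after LPA and 37.8 CPM after vehicle as measured, and 60.3 and 48.3 CPM at the fixed mix, where the points of Pdgfra and Pdgfrb lay closer as well.

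Over all nuclei kept, edgeR called 0 of the 6 members, against 5.62% of all genes tested and 4225 genes with an unadjusted p under 0.05. Pdgfb was closest, at 14.8, 14.5 and 14.99 CPM after LPA and 13.6, 9.24 and 10.1 CPM after vehicle (log2 difference 0.43 ± 0.13, edgeR adjusted p = 0.096). DESeq2 called it (adjusted p = 0.024), and so did edgeR without vehicle replicate 1 (0.61, adjusted p = 0.0046). Pdgfra had a log2 difference of 0.27 ± 0.12 (adjusted p = 0.26), which was 0.14 without LPA replicate 2 and 0.17 without vehicle replicate 3. The nuclei behind each total shifted. Oligodendrocyte precursors were 6.24% ± 0.692 of all nuclei after LPA and 3.997% ± 0.809 after vehicle and gave 49.3% and 35.7% of the UMIs of Pdgfra. Meningeal cells were 4.16% ± 0.701 and 9.33% ± 0.599 of nuclei and gave 7.74% and 18.6% (two-sided exact permutation p = 0.1 for both shares of nuclei). Pericytes kept a like share, 1.95% ± 0.0392 and 1.94% ± 0.231, and gave 30.8% and 26.8% of the UMIs of Pdgfrb. For Pdgfd, astrocytes gave 34.8% and 22.7% and meningeal cells 10.7% and 23.8%. For Pdgfa, neurons gave 22.8% and 26.3%, more than the 14.6% and 13.7% of newly formed oligodendrocytes.

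**Figure D5:**
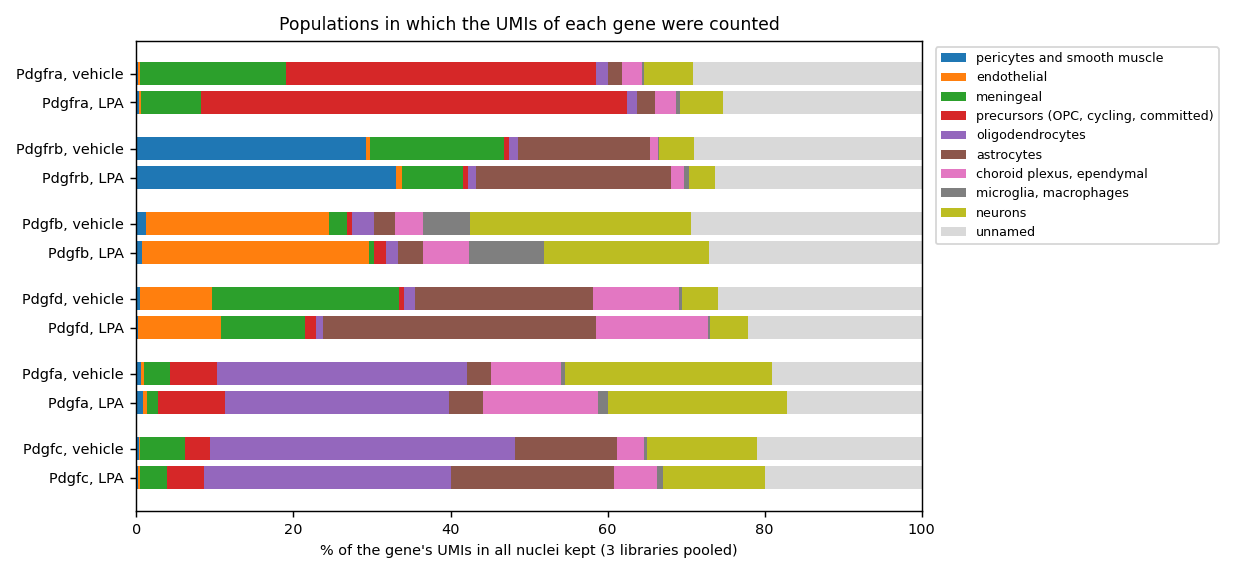
Share of the UMIs of each PDGF gene that came from each group of nuclei, pooled over the 3 LPA or the 3 vehicle libraries. Meningeal cells gave 7.74% of the UMIs of Pdgfra after LPA and 18.6% after vehicle.

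Whether a member responded differently in 2 populations was tested for 5 pairs chosen among pericytes, endothelial cells, meningeal cells, oligodendrocyte precursors and myelinating oligodendrocytes. No member was called in any of them. The share of all genes called was 0% for endothelial cells against pericytes, 0.167% for meningeal cells against pericytes, 0.0804% for meningeal against endothelial cells, 0.275% for meningeal cells against oligodendrocyte precursors and 0.0789% for the precursors against myelinating oligodendrocytes. For Pdgfra the response in meningeal cells differed from that in oligodendrocyte precursors by 0.13 ± 0.11 on the log2 scale (edgeR adjusted p = 0.91). For Pdgfrb the response in meningeal cells differed from that in pericytes by -0.11 ± 0.12 (adjusted p = 0.93).

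The wider pathway was read from lists of its genes. In pericytes, where 0.226% of all genes were called, 0 of 17 tested adaptors and kinases, 0 of 13 genes of the downstream cascade and 0 of 13 negative regulators were called, with medians of 0.09, 0.08 and -0.02 on the log2 scale against 0.01 for all genes. In oligodendrocyte precursors 0 of 18, 0 of 15 and 0 of 14 were called, against 0.177% of all genes, and in endothelial cells 0 of 17, 0 of 14 and 0 of 11, against 0.103%. With so few calls among all genes, a count of 0 says nothing particular about these lists. In meningeal cells, where 1.14% of all genes were called, 2 of 7 genes of PDGF processing and retention rose. They were Sulf1 (0.38 ± 0.08, edgeR adjusted p = 0.018), which trims the heparan sulfate that holds PDGF, and Pcsk5 (0.45 ± 0.11, adjusted p = 0.043), a proprotein convertase. Among 18 adaptors and kinases 1 was lower, Pik3r1, the regulatory subunit of phosphatidylinositol 3-kinase (-0.48 ± 0.11, adjusted p = 0.041). In meningeal clusters without Slc47a1, 2 of 7 processing genes were called higher (median 0.25, with 1.27% of all genes called). In those with Slc47a1 it was 0 of 7 (median -0.05, with 0.718% called). In either kind 0 of 18 adaptors and kinases were called. The mix of meningeal clusters differed between the groups, and its part in these values was not tested. In all vascular nuclei, where the mix differed, 5 of 18 adaptors and kinases and 4 of 14 negative regulators rose and 1 of 16 genes of the downstream cascade fell, against 8.79% of all genes called. In astrocytes 2 of 7 genes of processing and retention rose, with 2 of 18 adaptors and kinases, 1 of 16 of the downstream cascade and 1 of 5 early response genes, and 1 of 14 negative regulators fell, shares to be read against 8.09% of all genes. In the astrocyte clusters led by Gfap, Grin2c and Slc6a11, 1, 0 and 0 of 7 processing genes were called higher. For adaptors and kinases it was 0, 1 and 0 of 18, against 9.43%, 2.56% and 0.389% of all genes. The mix of astrocyte clusters also differed between the groups, and its part was not tested. Of the relatives of the family, 0 of 5 VEGF ligands were called in astrocytes, meningeal cells or all vascular nuclei, and 1 of 4, Vegfa, was higher in the astrocytes led by Gfap and Myoc, against 9.43% of all genes. Among the class III receptor tyrosine kinases, the relatives of the receptors, 1 of 1 tested, Csf1r, was lower in microglia (8.82% of genes called), and Kit was lower as 1 of 2 in myelinating oligodendrocytes (0.467%) and as 1 of 3 over all nuclei (5.62%). These 3 genes were picked for naming after their values had been seen.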

How the data were processed

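NeuN-negative nuclei of 6 brains (3 LPA, 3 vehicle) were profiled with the 10x Genomics 3′ v3 kit. The deposited matrices are raw UMI counts that the authors made with Cell Ranger 4.0.0 on a pre-mRNA reference of mm10, so intronic reads count. Nuclei were kept from 300 detected genes upward, if mitochondrial UMIs did not exceed 1% and total UMIs lay below the upper quartile plus 1.5 interquartile ranges (total UMIs per library 48852970 to 65688644). They were clustered with scanpy 1.11.5 and leidenalg 0.10.2 (3000 variable genes, 40 components, 30 neighbors, resolution 1). Clusters took the name with the best marker score; limits for mixed clusters, those over 50% Scrublet calls and the split by Slc47a1 (100 CPM) were set after seeing the clusters. Doublet calls stayed in the main results. UMIs were summed per library and tested with edgeR 4.0.16 (TMM, filterByExpr, no covariate; DESeq2 1.42.0 as an alternative), in populations with at least 10 nuclei in every library. Exact tests enumerated the 20 assignments of libraries. In simulated data, changes of 1 on the log2 scale were recovered for 56% of genes in pericytes, 58.5% in endothelial cells and 83% in astrocytes. Of the calls, 3.45%, 6.40% and 8.29% were false. Smaller changes, the size of most member differences given here, were not simulated, so their recovery is not known. The members and lists were chosen with earlier results of these data known. Named genes are the 6 members, the 3 closest genes to each by Pearson's r and pathway genes called in meningeal cells, pericytes, endothelial cells or oligodendrocyte precursors. The labels give separate libraries per brain but not how animals were assigned, so p-values measure the spread between these libraries. Replicate libraries differed far beyond counting noise (chi-square per degree of freedom 12.5 to 25.0). No sequences were printed.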

Additional observations from a re-analysis of the deposited data

Results flagged for a closer look

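The log2 differences of Pdgfc, LPA minus vehicle, stood 2.00 ± 0.32 apart between meningeal clusters with and without Slc47a1 (edgeR interaction test, adjusted p = 0.00022, with 0.472% of genes called; 1.77 to 2.39 with 1 library left out). The pair was added after the levels had been seen. In the clusters without Slc47a1 Pdgfc was no higher than in microglia, with 22 UMIs after LPA and 130 after vehicle. The difference there went from -1.40 to -0.36 with no mitochondrial limit and to -0.68 at Leiden resolution 2, and the interaction was not refitted under these settings, so it is not shown as a difference in response.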

How the results depend on the processing

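Alternatives were other size factors, DESeq2, no low-count filter, a replicate block, each library left out, no mitochondrial limit, Scrublet calls left out, Leiden resolution 2 and nuclei under 1000 UMIs left out. The sex of the animal, hemoglobin-led nuclei and fixed meningeal clusters were added after seeing the data. Of 417 values, 393 were labelled the same. For a count this means close to the main count, so that 2 and 3 calls were the same. For a difference it means a move of less than the replicate spread, whatever its sign. Of 261 further values, mostly of single members, 235 stayed the same and 18 lost a call. Another 6 gained a call, 1 turned its sign and 1 moved. Within populations 2 members were called with no low-count filter, with sex as a term and at resolution 2 (0 to 2 without 1 library, 0 without LPA replicate 3 and 2 without vehicle replicate 3), Pdgfb in ependymal cells (adjusted p = 0.023, 0.043 and 0.049) beside Pdgfc. These calls of Pdgfb rest on few vehicle UMIs and were not read as a difference. Over all nuclei 1 was called by DESeq2 and with the replicate block (0 to 1 without 1 library, 1 without vehicle replicate 1). All vascular nuclei kept 2 to 3 calls without 1 library, and DESeq2 lost Pdgfra (adjusted p = 0.057). The labels do not say that replicate numbers pair the samples. Correlations of deviations over all nuclei were 0.11, 0.24 and -0.03 for the same number. They ran from -0.27 to 0.20 for different numbers, and pairing was not tested. Under the block, Pdgfra was called over all nuclei (0.27, adjusted p = 0.025) and Pdgfc lost its call in meningeal clusters with Slc47a1 (0.61, adjusted p = 0.083). With sex as a term that call was also lost (0.60, adjusted p = 0.052). The lower Pdgfc in clusters without Slc47a1 was lost with no mitochondrial limit (-0.36) and at resolution 2 (-0.68). Pdgfrb in pericytes, at -0.05, ran from -0.11 to 0.000897 with 1 library left out and turned its sign without vehicle replicate 1. Shares of nuclei, in percentage points LPA minus vehicle, moved with Scrublet calls left out to -6.04 for meningeal cells and -4.23 for those without Slc47a1, and at resolution 2 to 3.14 for oligodendrocyte precursors and 0.313 for newly formed oligodendrocytes. Shares of nuclei with a UMI moved without thinning to 5.03 (Pdgfa, newly formed oligodendrocytes), 13.1 (Pdgfb, endothelial), 6.08 (Pdgfc, myelinating oligodendrocytes), -3.02 (Pdgfd, endothelial), 0.560 (Pdgfd, meningeal), 2.65 (Pdgfra, precursors) and 2.13 (Pdgfrb, meningeal), at 2000 UMIs to 3.14 (Pdgfa), 6.54 (Pdgfb) and -3.19 (Pdgfra), to 6.52 (Pdgfb) with no mitochondrial limit and to -2.24 (Pdgfrb, meningeal) at resolution 2. Thinned to 1000 UMIs with 1 library left out, these shares differed by -4.50 to -0.197 for Pdgfa. For Pdgfb they differed by 2.45 to 4.48. For Pdgfd they differed by -10.9 to -6.58 in endothelial and by -5.13 to -2.22 in meningeal cells. For Pdgfrb in meningeal cells they differed by -1.41 to -0.384. Without thinning the sign thus turned for Pdgfa and for meningeal Pdgfd and Pdgfrb. With no mitochondrial limit no macrophages, cycling precursors or newly formed oligodendrocytes were named, and at resolution 2 no committed or cycling precursors, so these have no value there. The cause of these shifts was not tested.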
